A study of Mus musculus with 6 samples.

Results

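Mitochondrial ribosomal protein genes encode the protein subunits of the ribosome inside mitochondria. They were taken as the protein-coding rows of the deposited gene table whose symbol begins with Mrpl or Mrps followed by a number and which carry no second gene name. This gave 73 genes of 51482 measurements in the table, 47 with a large-subunit symbol (Mrpl) and 26 with a small-subunit symbol (Mrps). RNA came from wild-type (WT) mouse embryonic fibroblasts immortalised with SV40, a virus whose large T antigen keeps primary cells dividing, so the cells are a transformed line and not primary fibroblasts. One group of 3 samples was kept at 21% oxygen (normoxia) and the other group of 3 at 0.5% oxygen (hypoxia), both for 16 h. All samples share the genotype and the SV40 immortalisation.

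The mitochondrial ribosome makes the few proteins encoded by mitochondrial DNA, all of them subunits of the respiratory chain and ATP synthase. Its RNAs are transcribed from mitochondrial DNA, whereas every protein is encoded in the nucleus, made in the cytosol and imported. Many of these proteins have a counterpart in the bacterial ribosome, and others exist only in mitochondria, where they clad a much reduced RNA core. Loss of single subunits, such as those encoded by MRPL3, MRPL44, MRPS2, MRPS16 or MRPS22 in people, causes respiratory chain disease.

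The authors give 1 FPKM per gene and condition (fragments per kilobase of transcript, scaled to the sequenced total), a value made from all replicates together. Values of single samples are not used here, so no SD can be given and the overlap of replicates cannot be shown. The words rose and fell are kept for genes with a q-value below 0.05 in the authors' deposited table. The depth of the libraries is unknown. Of 8 tested fibroblast markers 5 fell, 1 rose and 2 were not called, with a median log2 change of -0.39. Those that fell were Col3a1 (328 to 182 FPKM), Col1a2 (140 to 91.7 FPKM), Dcn (28.8 to 24.0 FPKM), Pdgfrb (10.9 to 6.58 FPKM) and Thy1 (8.65 to 5.72 FPKM). Vim rose from 883 to 2249 FPKM, and Col1a1 (463 and 451 FPKM) and Pdgfra (3.11 and 3.22 FPKM) were not called. The summed level of the 8 went from 1865 to 3013 FPKM, most of it Vim. Lum, another fibroblast gene, was listed at 0.0123 FPKM in normoxia and at 0 in hypoxia. Of 6 tested markers of other cell types, the epithelial genes Krt8 (28.3 to 10.1 FPKM) and Cdh1 (5.93 to 3.76 FPKM) fell, the macrophage gene Cd68 rose (1.32 to 2.27 FPKM), and Epcam (5.97 and 5.22 FPKM), Des (11.0 and 9.46 FPKM) and Sox2 (2.18 and 2.38 FPKM) were not called. Their summed level went from 54.7 to 33.2 FPKM, while Ptprc, Pecam1, Cdh5 and Myod1 were at or near 0. The part of these markers in the results below was not tested.

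More of the mitochondrial ribosomal protein transcripts fell in hypoxia than rose, and most changes were modest. Of 72 tested genes 32 fell (44.4%), 9 rose (12.5%) and 31 were not called. Of all 14575 tested measurements, the authors' deposited table calls 57.9% in either direction, 29.0% lower and 28.9% higher in hypoxia. The median log2 fold change of FPKM + 1 was -0.21 (quartiles -0.54 and 0.028), against 0.0027 over all tested measurements whose mean reached 1 FPKM. In these bulk samples less RNA per cell and fewer cells of a kind cannot be told apart. The members were also more abundant than most genes, with a median of 48.5 FPKM in normoxia against 14.8 FPKM over all measurements past the filter; the part of abundance in the share called was not tested.

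Among larger changes the share of falls was near or below that of all tested measurements, while falls still outnumbered rises. A fall of at least 1.5-fold was called for 15 members (20.8%), against 19.1% of all tested measurements, and a rise of that size for 5 members (6.94%), against 17.9%. At 2-fold or more, 5 members fell (6.94%, against 9.87%) and none rose by the authors' Cuffdiff test (background 9.03%). The called falls ran from 1.16-fold (Mrpl42) to 3.12-fold (Mrpl41), with a median of 1.49-fold, and the called rises from 1.29-fold (Mrpl49) to 1.92-fold (Mrpl14).

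**Figure D1:**
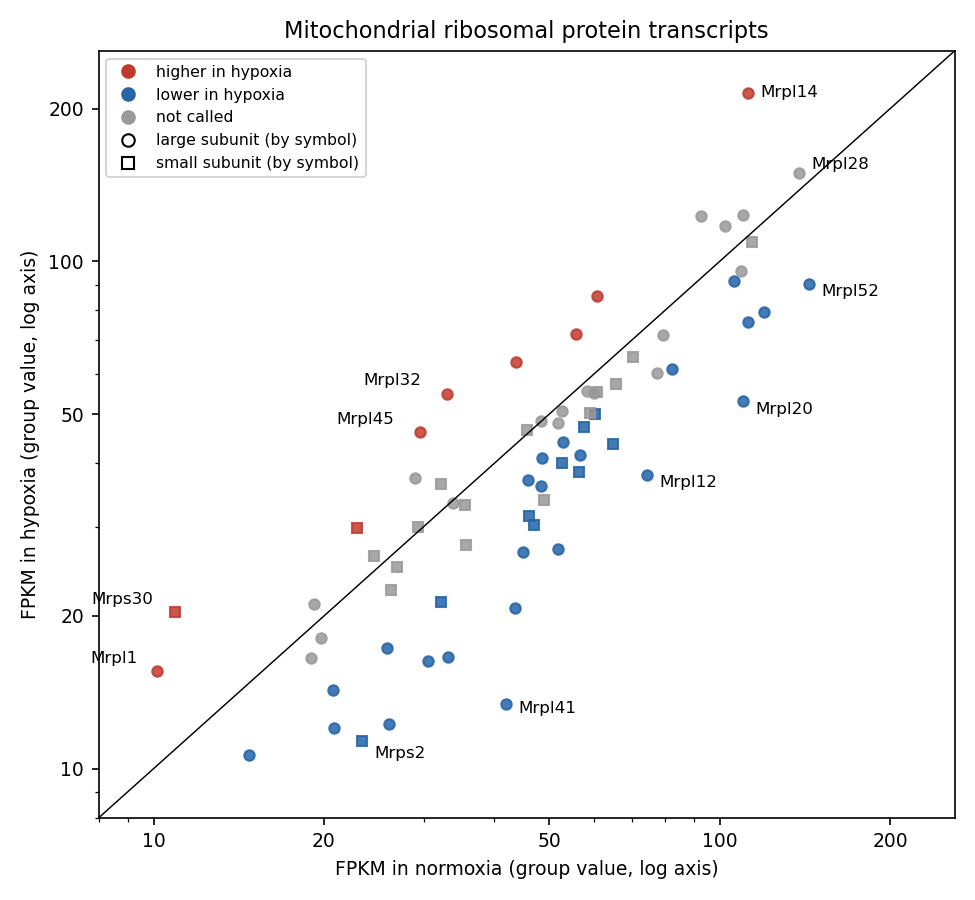
FPKM in hypoxia against FPKM in normoxia (authors' group values, both axes logarithmic) for the 72 tested genes, coloured by the authors' call, with circles for Mrpl and squares for Mrps symbols and a line of equal values. Mrpl14 lies far above the line at 112 and 215 FPKM, and Mrpl41 farthest below it at 41.8 and 13.4 FPKM.

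Levels spanned a 14.2-fold range in normoxia, from Mrpl1 at 10.1 FPKM to Mrpl52 at 144 FPKM, and a 20.2-fold range in hypoxia, from Mrpl44 at 10.7 FPKM to Mrpl14 at 215 FPKM. The 5 most abundant in normoxia were Mrpl52, Mrpl28, Mrpl17, Mrps21 and Mrpl14. In hypoxia Mrpl14 moved from rank 5 to rank 1, Mrpl28 stayed at rank 2, and Mrpl52 and Mrpl17 dropped to ranks 9 and 11. Across the 72 genes the levels in the 2 conditions had a Spearman rho of 0.88, a description over genes that share the same libraries. With no replicate values, neighbours in this order cannot be told apart.

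Large-subunit and small-subunit genes had nearly the same median change. It was -0.21 in both, with a difference of 0.0024 (large minus small). Of 47 large-subunit genes 23 fell (48.9%) and 7 rose (14.9%), and of 25 tested small-subunit genes 9 fell (36.0%) and 2 rose (8.0%). Over all tested measurements 29.0% were called lower and 28.9% higher, so the small-subunit share of falls lay nearer to the background. The summed level of the large-subunit genes went from 2799 to 2553 FPKM (a ratio of 0.912) and that of the small-subunit genes from 1148 to 981 FPKM (0.855). The ratio of the sums was therefore 2.44 in normoxia and 2.60 in hypoxia. The difference between subunits was not tested, since genes are not replicates of a condition. Over all tested measurements the summed FPKM was 1.17 times as high in hypoxia.

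**Figure D2:**
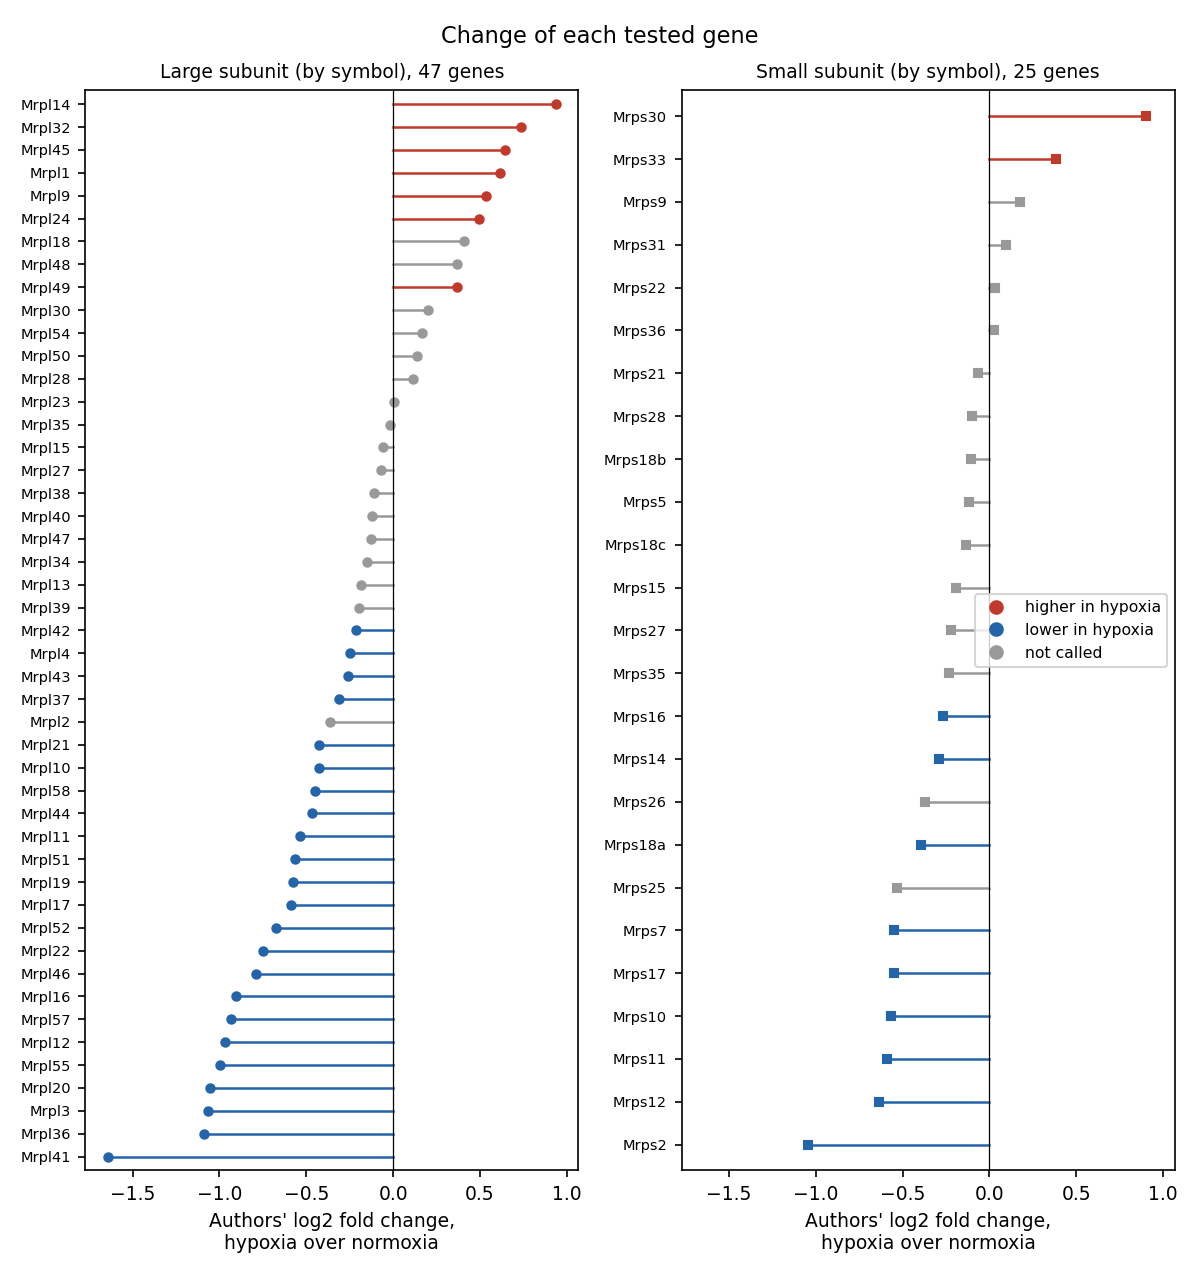
Deposited log2 fold change (hypoxia relative to normoxia) of each tested gene, ordered within the large (47 genes) and the small (25 genes) subunit by symbol and coloured by call. Both panels lean to the left of 0, with Mrpl41 at -1.64 and Mrps2 at -1.04 lowest and Mrpl14 at 0.94 and Mrps30 at 0.90 highest.

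Mrpl41, whose product is a large-subunit protein found only in mitochondria, fell most, from 41.8 to 13.4 FPKM (3.12-fold). It lies on chromosome 2 at 24974117 to 24975098 (GRCm38) and dropped from rank 46 to rank 68 among the 72 genes. Falls of about 2-fold were called for Mrpl36, Mrpl3, Mrpl20 and Mrps2. Mrpl36, which encodes a very small zinc-binding protein of bacterial type, went from 26.0 to 12.2 FPKM (2.13-fold; chromosome 13, 73328513 to 73332178). Mrpl3, a core protein that reaches toward the peptidyl transferase centre, went from 43.5 to 20.8 FPKM (2.09-fold; chromosome 9, 105053239 to 105079888). Mrpl20, an early rRNA-binding protein in bacteria, went from 110 to 52.9 FPKM (2.07-fold; chromosome 4, 155802878 to 155809975). Mrps2 fell most among small-subunit genes, from 23.3 to 11.3 FPKM (2.06-fold; chromosome 2, 28468066 to 28471178). The q of these 5 genes in the authors' deposited table is 0.000139, the smallest it holds, shared by 21 members that fell and 6 that rose, so q does not rank them.

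Further falls of nearly that size were Mrpl55 (33.1 to 16.6 FPKM), Mrpl57 (51.8 to 27.1 FPKM) and Mrpl16 (30.6 to 16.3 FPKM). All 3 stayed just under a 2-fold change, at 1.99-fold, 1.91-fold and 1.87-fold. The most abundant member in normoxia, Mrpl52, fell from 144 to 90.2 FPKM (1.59-fold), and Mrpl17 from 120 to 79.5 FPKM (1.5-fold). Mrpl51 and Mrpl19 fell 1.48-fold and 1.49-fold. Smaller falls were called for Mrpl58 (1.36-fold), which encodes a peptidyl-tRNA hydrolase built into the large subunit, for Mrpl21 (1.34-fold) and for Mrpl44 (1.38-fold), whose product has a ribonuclease fold. Mrpl37, Mrpl43, Mrpl4 and Mrpl42 fell between 1.16-fold and 1.24-fold.

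The 9 rises were led by Mrpl14 and Mrps30. Mrpl14, a protein of the face where the subunits meet, rose from 112 to 215 FPKM (1.92-fold; chromosome 17, 45686322 to 45698495). Mrps30 rose from 10.9 to 20.3 FPKM (1.87-fold; chromosome 13, 118378381 to 118387252). Despite its symbol, the Mrps30 protein sits in the large subunit (systematic name mL65) and is a relative of the Mrpl37 protein, whose gene fell from 45.9 to 37.0 FPKM. Mrpl32, the protein whose cleavage by the m-AAA protease lets ribosomes assemble, rose from 33.0 to 54.8 FPKM (1.66-fold). Mrpl45, whose product ties the ribosome to the inner membrane, rose from 29.5 to 46.1 FPKM (1.56-fold), and Mrpl1 from 10.1 to 15.6 FPKM (1.53-fold). Mrpl9, Mrpl24, Mrps33 and Mrpl49 rose between 1.29-fold and 1.45-fold. With Mrps30 and Mrps18a placed in the large subunit, where structures show them, 24 of 49 large-subunit genes fell and 8 rose. Mrps33 was then the only gene of 23 tested in the small subunit to have risen, beside 8 that fell. These 23 still count Mrps36, which was not called and whose protein is treated below.

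By site in the ribosome, the counts are of 1 to 6 genes each and are given as values, with no test. The site lists hold chosen genes and are not complete. Members given no site include Mrpl4, Mrpl17 and Mrpl58, which fell, Mrps33, which rose, and Mrps31 and Mrps35, not called. All 3 genes listed for the factor-binding stalk fell. Mrpl12 went from 74.2 to 38.0 FPKM (1.96-fold), Mrpl11 from 20.7 to 14.3 FPKM (1.45-fold) and Mrpl10 from 48.4 to 36.0 FPKM (1.34-fold). The stalk recruits the translation factors, and Mrpl12 also has been described as a partner of the mitochondrial RNA polymerase. Mrps12, the decoding-centre protein, fell from 46.9 to 30.2 FPKM (1.55-fold; chromosome 7, 28739641 to 28741820). Of 4 genes listed for the head of the small subunit, Mrps10 fell 1.48-fold, Mrps7 1.46-fold and Mrps14 1.22-fold. Mrps9, also listed, stood at 32.2 and 36.4 FPKM (q = 0.123 in the authors' deposited table). Dap3, a further head gene given below, rose. Mrps17, Mrps11 and Mrps16 fell 1.46-fold, 1.51-fold and 1.2-fold.

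The 5 genes listed for the peptide exit tunnel were divided. Mrpl22 fell from 44.9 to 26.8 FPKM (1.68-fold), Mrpl24 rose from 60.8 to 85.6 FPKM (1.41-fold) and Mrpl45 rose as above. Mrpl23, at 48.3 and 48.4 FPKM, had the smallest difference of all members, and Mrpl47, at 19.8 and 18.1 FPKM, was not called either. Of the genes listed for the central protuberance, a crest of the large subunit, Mrpl46 fell from 20.8 to 12 FPKM (1.73-fold). The other 5 listed, Mrpl18, Mrpl27, Mrpl38, Mrpl40 and Mrpl48, were not called. Of the genes for the 3 relatives of bacterial S18, Mrps18a fell 1.31-fold, and Mrps18b (26.9 and 24.9 FPKM) and Mrps18c (60.8 and 55.3 FPKM) were not called.

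Genes with and without a bacterial counterpart differed little in median. Of 42 genes with a counterpart 20 fell (47.6%) and 5 rose (11.9%), with a median of -0.22. Of 25 tested genes listed for proteins found only in mitochondria 9 fell (36.0%) and 4 rose (16.0%), with a median of -0.21. Another 5 genes were placed in neither class, with a median of -0.38. Of these, Mrpl55, Mrpl58 and Mrps18a fell, and Mrps18b and Mrps36 were not called. Over all tested measurements 29.0% were called lower and 28.9% higher. With subunits taken by structure, which puts Mrps30 in the large subunit and leaves Mrps18b and Mrps36 in neither class, the small-subunit calls were uneven. Of 14 genes with a counterpart 8 fell (57.1%) and none rose by the authors' Cuffdiff test. Of 7 tested genes without one Mrps33 rose (22.9 to 29.8 FPKM) and none was called lower. With only 7 genes, the lack of a call cannot be set apart from the background of 29.0% lower. The medians of these small-subunit groups, -0.27 and -0.21, lay closer together than the calls. None of these differences was tested.

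**Figure D3:**
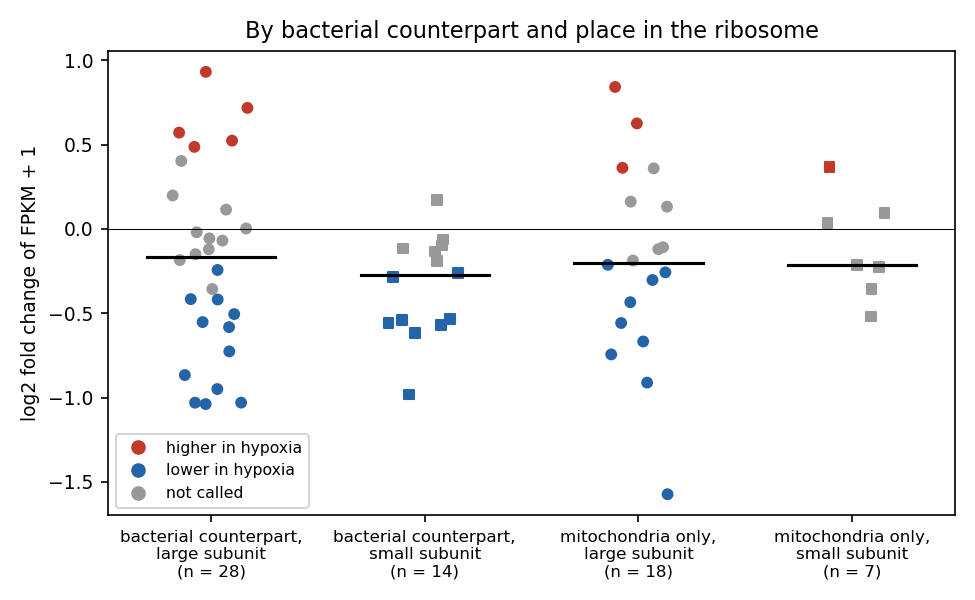
log2 fold change of FPKM + 1 for members grouped by bacterial counterpart and by place in the ribosome (points, coloured by call), with the median of each group (bar). The 14 small-subunit genes with a bacterial counterpart include 8 falls and no rise, and the 7 small-subunit genes found only in mitochondria include no fall. Of all tested measurements 29.0% were called lower and 28.9% higher.

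Among the 31 genes that were not called, 20 had the lower value in hypoxia and 11 the higher. Their differences reached 1.45-fold. The widest were Mrps25 (49 and 33.9 FPKM, q = 0.0981), Mrpl18 (92.8 and 123 FPKM, q = 0.191), Mrpl48 (29.0 and 37.5 FPKM, q = 0.290), Mrps26 (35.6 and 27.6 FPKM, q = 0.205) and Mrpl2 (77.5 and 60.3 FPKM, q = 0.543), all with q from the authors' deposited table. Differences of similar size in Mrpl10 and Mrpl21 were called, so q and not size parted them. The abundant genes Mrpl28 (138 and 149 FPKM), Mrps21 (114 and 109 FPKM), Mrpl54 (110 and 123 FPKM), Mrpl13 (109 and 95.6 FPKM) and Mrpl30 (102 and 117 FPKM) were not called. Nor were Mrpl15, Mrpl34, Mrpl35, Mrpl39, Mrpl50, Mrps5, Mrps15, Mrps22, Mrps27, Mrps28, Mrps31, Mrps35 and Mrps36, whose values differed by at most 1.17-fold. The Mrps36 protein is now assigned to the oxoglutarate dehydrogenase complex and not to the ribosome. Nearest to the threshold in the authors' deposited table were Mrpl19 (q = 0.0497) and Mrpl42 (q = 0.0475) inside it and Mrps15 (q = 0.0753) and Mrpl30 (q = 0.0764) outside.

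Mrps23 was the 1 member without a test. It is listed at 0.262 and 0.219 FPKM, far below the next lowest member at 10.1 FPKM. A value this low for a subunit of a complex whose other parts are well expressed can be a failed estimate, so nothing is read from it. Mrpl33, Mrpl53, Mrps6, Mrps24 and Mrps34 have only joint measurements with overlapping genes and are not members. Of these, the joint measurements of Mrpl33 with Babam2 (187 to 154 FPKM) and of Mrps24 with Urgcp (66.7 to 54.1 FPKM) fell, and the other 3 were not called. The annotated pseudogenes Mrpl23-ps1 and Mrpl48-ps stood at 1.79 and 3.32 FPKM in normoxia, so reads shared with their parent genes make those 2 parents less certain.

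A further 5 proteins of the mitochondrial ribosome carry other names, and 2 of their genes rose. Dap3, whose GTP-binding product lies in the head of the small subunit, rose from 76.6 to 140 FPKM (1.83-fold). Gadd45gip1, encoding a large-subunit protein, rose from 34.5 to 55.7 FPKM (1.61-fold). Aurkaip1 fell from 92.1 to 78.2 FPKM, and Chchd1 (113 and 91.0 FPKM) and Ptcd3 (30.9 and 31.3 FPKM) were not called. Of the ribosomal RNAs, mt-Rnr1 of the small subunit rose from 223 to 499 FPKM and mt-Rnr2 of the large subunit fell from 208 to 172 FPKM. The libraries were selected for poly-A, which captures ribosomal RNA poorly.

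Among genes for the assembly and use of the mitochondrial ribosome more fell than rose. Of 26 tested assembly factors 12 fell and 5 rose (median -0.19). The rRNA methyltransferase genes Mrm2 and Mrm3 fell from 6.85 to 2.53 FPKM (2.71-fold) and from 6.34 to 2.85 FPKM (2.22-fold). Ybey, a presumed rRNA-processing nuclease, went from 1.46 to 0.572 FPKM and Rcc1l, which acts with a pseudouridine synthase module, from 11.5 to 5.47 FPKM. Against that direction, Trmt2b rose 1.54-fold and Malsu1, an anti-association factor of the large subunit, 1.47-fold. Of 16 translation factors 9 fell and 2 rose (median -0.38). Taco1, needed to translate the cytochrome oxidase subunit I transcript, fell from 8.26 to 4.50 FPKM, the release factor gene Mtrf1l from 8.23 to 4.54 FPKM and the elongation factor genes Gfm1 and Gfm2 1.73-fold and 1.72-fold. The recycling factor gene Mrrf and the initiation factor gene Mtif3 rose 1.46-fold and 1.42-fold. Mpv17l2 was listed at 0 in both conditions.

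Cytosolic ribosomal protein genes moved the other way. Of 71 tested genes 66 rose and 1, Rps27l, fell, with a median of 0.45. Of 73 nuclear genes of the respiratory chain and ATP synthase, 26 fell (35.6%) and 10 rose (13.7%), with a median of -0.081. These groups share the libraries and the scaling with the mitochondrial ribosome, and the differences between groups were not tested.

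**Figure D4:**
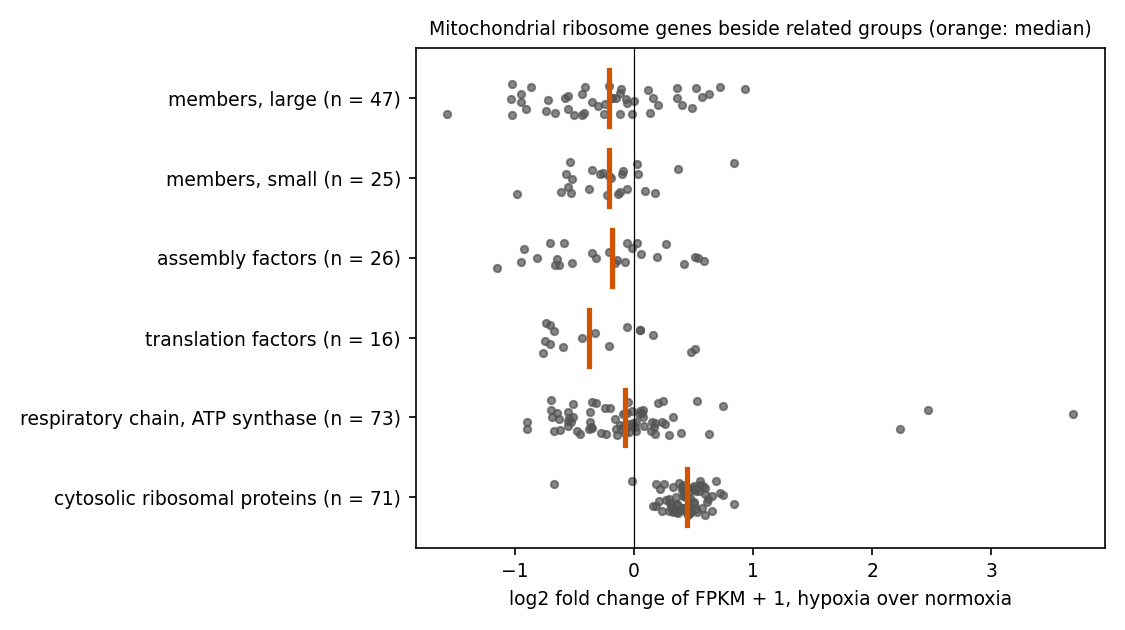
Change in log2(FPKM + 1), hypoxia minus normoxia, for the genes of 6 groups (points), with the median of each (orange bar). Both sets of mitochondrial ribosomal protein genes centre at -0.21 and spread over both sides of 0, whereas the cytosolic ribosomal protein genes cluster around 0.45.

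Of 14 genes for regulators of nuclear or mitochondrial genes of this pathway, 5 rose, 4 fell and 5 were not called. NRF1 and the ETS factor GABP bind promoters of many such genes, and YY1 binds a further set. Nrf1 rose from 28.6 to 41.0 FPKM (1.43-fold), Gabpa from 22.9 to 33.2 FPKM, Gabpb1 from 24.3 to 32.7 FPKM, Gabpb2 from 13.1 to 18.9 FPKM and Yy1 from 38.8 to 63.9 FPKM (1.65-fold). Myc and Mycn, which drive ribosome production and growth, fell 1.45-fold and 2.13-fold. Of the coactivator genes, Pprc1 stood at 26.6 and 17.9 FPKM (q = 0.0653 in the authors' deposited table), Ppargc1b at 1.17 and 1.28 FPKM and Ppargc1a at 0.316 and 0.164 FPKM, and none of the 3 was called. Within mitochondria, the RNA polymerase gene Polrmt and its cofactor gene Tfb2m fell 1.32-fold and 1.69-fold.

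Promoter windows from RefSeq (GRCm38.p6, 250 bases before to 50 after the start, the first listed per gene) were matched for 65 of the 73 members. The letters GCGCATGC, the core of the NRF1 motif, were found on either strand in 7 of these 65 (10.8%), against 2.80% of 27025 promoters of all genes. The ETS motif CCGGAAGT was found in 10 (15.4%, against 4.0%) and the YY1 motif AAGATGGC in 11 (16.9%, against 2.88%), in 7 of these at least partly after the start. The E-box CACGTG was found in 5 (7.69%, against 7.24%) and ACGTG, the core of the hypoxia response element, which also lies within the E-box, in 15 (23.1%, against 19.7%). Of the 9 members that rose, 2 hold the NRF1 letters, 2 the YY1 letters, 2 ACGTG and none the ETS letters. Of the 30 members with a window that fell, 3 hold the NRF1 letters, 4 the ETS letters, 7 the YY1 letters and 6 ACGTG. Among the 25 with a window that were not called, 2 hold the NRF1 letters, 6 the ETS letters, 2 the YY1 letters and 7 ACGTG. A match is a description of letters, not a binding site.

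The following stretches, cut where GENCODE M21 annotates any exon, show the upstream sequence of the member that fell most (Mrpl41), of a 2-fold fall with an E-box (Mrpl20; Mrpl36 is another), of a rise and a fall that share the NRF1 letters (Mrpl9 and Mrpl22) and of 3 members that fell with a head-to-head neighbour (Mrpl43, Mrps12, and Mrpl46 with Mrps11). They are written 5′ to 3′ on the strand of the named gene, with the motifs above in capitals. Upstream is meant relative to the RefSeq start. The Mrpl46 stretch lies inside the longer span that GENCODE M21 gives Mrpl46, so it is not a region between 2 genes there. Mrpl41 is from chr2:24975099-24975348 (minus strand), Mrpl20 from chr4:155802628-155802877 (plus), Mrpl9 from chr3:94443086-94443317 (plus), Mrpl22 from chr11:58171414-58171660 (plus), Mrpl43 from chr19:45006443-45006557 (minus), Mrps12 from chr7:28741822-28741991 (minus) and Mrpl46 from chr7:78783090-78783118 (minus), all on GRCm38.
Mrpl41: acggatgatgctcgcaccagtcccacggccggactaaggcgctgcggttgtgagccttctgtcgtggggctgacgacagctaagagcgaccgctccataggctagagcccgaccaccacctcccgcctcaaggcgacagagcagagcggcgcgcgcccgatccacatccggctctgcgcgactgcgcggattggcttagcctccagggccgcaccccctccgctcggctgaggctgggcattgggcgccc
Mrpl20: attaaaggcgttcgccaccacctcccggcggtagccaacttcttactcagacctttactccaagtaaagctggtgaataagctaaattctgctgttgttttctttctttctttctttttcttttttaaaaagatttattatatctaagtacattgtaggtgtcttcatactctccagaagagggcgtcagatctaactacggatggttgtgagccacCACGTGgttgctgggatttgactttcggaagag
Mrpl9: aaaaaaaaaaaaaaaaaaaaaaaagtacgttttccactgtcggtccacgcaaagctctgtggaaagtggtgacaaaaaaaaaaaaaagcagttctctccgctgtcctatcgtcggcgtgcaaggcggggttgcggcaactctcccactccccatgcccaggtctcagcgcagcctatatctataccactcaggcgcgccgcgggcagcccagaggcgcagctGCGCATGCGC
Mrpl22: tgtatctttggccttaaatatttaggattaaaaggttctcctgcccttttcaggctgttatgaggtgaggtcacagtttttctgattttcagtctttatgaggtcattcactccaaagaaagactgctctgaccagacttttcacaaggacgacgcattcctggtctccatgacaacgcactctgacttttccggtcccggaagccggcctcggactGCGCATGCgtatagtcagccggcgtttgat
Mrpl43: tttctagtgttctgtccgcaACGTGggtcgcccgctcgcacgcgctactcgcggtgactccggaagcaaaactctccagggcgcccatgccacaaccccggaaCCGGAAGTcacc
Mrps12: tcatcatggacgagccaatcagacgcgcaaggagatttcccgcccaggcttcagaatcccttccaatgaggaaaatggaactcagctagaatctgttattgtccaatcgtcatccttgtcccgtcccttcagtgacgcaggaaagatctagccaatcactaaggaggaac
Mrpl46: gcccctcgccggcccgcgttgcctcatgg

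The Mrpl9 stretch ends in overlapping copies of the NRF1 letters read on both strands, and Mrpl22 holds a single copy. Mrpl9 rose from 43.7 to 63.3 FPKM (1.45-fold) and Mrpl22 fell, as given above. The stretch of Mrpl41 holds none of the searched motifs, which says only that these letters are not in this window.

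Of the members, 32 have a protein-coding gene on the other strand whose annotated start lies within 1000 bases of their own. They form 31 pairs because Mrpl46 and Mrps11 are each other's neighbour. The neighbour's start lies upstream of the member's start in some pairs and inside the member in others, as with Twnk in Mrpl43 and Tmem63b in Mrpl14. A shared promoter was therefore not assumed. Both genes were tested in 28 pairs and both called in 9, and of these 6 moved in the same direction. Over all tested measurements 57.9% were called, 29.0% lower and 28.9% higher, and the pair counts were not tested against these shares. Both genes fell in 5 pairs. Exons overlap on opposite strands in Mrpl46 with Mrps11, Mrpl36 with Ndufs6 and Mrpl43 with Twnk, so those values are less certain. The same holds for Mrpl44 with Wdfy1, which moved apart. Mrps11 fell from 32.2 to 21.4 FPKM (1.51-fold) beside Mrpl46. Mrps12 fell beside Sars2, the mitochondrial seryl-tRNA synthetase gene (10.8 to 8.36 FPKM), Mrpl43 (52.8 to 44.0 FPKM) beside Twnk, the mitochondrial helicase gene (11.4 to 9.19 FPKM), and Mrpl36 beside the complex I gene Ndufs6 (89.9 to 61.4 FPKM). Mrpl37 fell 1.24-fold while its neighbour Cyb5rl fell from 3.23 to 0.307 FPKM (10.5-fold). Mrpl49 and Fau, which encodes a cytosolic ribosomal protein fused to a ubiquitin-like protein, both rose (1.29-fold and 2.09-fold).

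In 3 pairs the member fell and its neighbour rose. Mrpl57 fell 1.91-fold beside the kinetochore gene Ska3 (18.1 to 29.8 FPKM), Mrpl44 fell from 14.8 to 10.7 FPKM beside Wdfy1 (7.84 to 12 FPKM), and Mrpl10 fell beside Lrrc46 (1.2 to 2.08 FPKM). The 2 largest rises had neighbours without a call or a test. Mrpl14 rose while Tmem63b stood at 29.3 and 27.3 FPKM (q = 0.586 in the authors' deposited table), and the neighbour of Mrps30 was near 0. Of the other members that rose, Mrpl32 has the proteasome gene Psma2 as its neighbour (80.7 and 71.2 FPKM, not called).

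**Figure D5:**
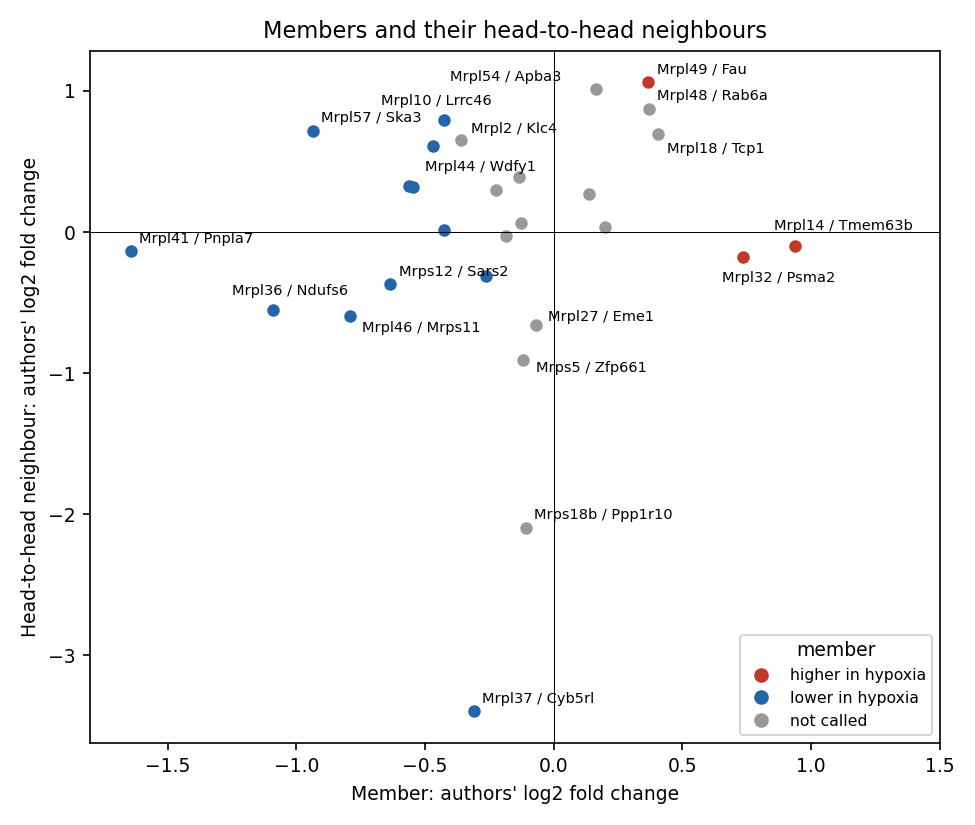
Deposited log2 fold change of the head-to-head neighbour against that of the member for 28 pairs in which both were tested, coloured by the call of the member. Mrpl46 with Mrps11 and Mrpl36 with Ndufs6 lie in the lower left, and Mrpl57 with Ska3 lies in the upper left at -0.94 and 0.72.

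Exons of 26 of the tested members overlap exons of a gene on the other strand in the annotation, and none overlaps a gene on the same strand. The library kit marks strand, but the sources used here do not say whether the authors' counting used it, so values of these 26 are less certain. Among them are Mrpl14, Mrps30, Mrpl36, Mrpl3 and Mrpl12. Of the 26, 12 fell, 5 rose and 9 were not called. Of the other tested members, without such an overlap, 20 fell and 4 rose, and their median was -0.19. Over all tested measurements the shares lower and higher were nearly equal, at 29.0% and 28.9%. Across the 72 genes the log2 fold change had a Pearson r of 0.055 with transcript length (log2; Spearman rho 0.026), of -0.15 with transcript GC content (rho -0.19) and of 0.18 with mean FPKM (log2; rho 0.17). These are descriptions over genes of the same libraries, and mean FPKM also enters the fold change.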

How the data were processed

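Per the submitters' processing notes, the tools were Cuffdiff 2.2.1, Cufflinks, StringTie 1.3.4d and HISAT2 2.1.0, and the build was GRCm38; libraries were stranded and poly-A selected, per the labels' protocols. The authors deposited 1 table with 1 FPKM per gene and condition, their log2 fold change (hypoxia over normoxia), p-value, q-value and test statistic (a score, not used). The sources used here do not give the scaling between libraries. The replicates are described as biological, but only combined values are held in the table, so calls rest on the authors' q below 0.05 and no test of single samples was run. Deposited log2 fold changes equalled the log2 FPKM ratios within 1.4e-05.

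Of 53207 rows, repeats of 1 measurement were counted once (51482, of which 14575 were tested). Medians used log2(FPKM + 1), which understates changes of low genes, at a mean of at least 1 FPKM; all 72 tested members passed. Counting code was tested on simulated data. All 73 members matched GENCODE M21 by identifier, and their loci held the annotated gene; the annotation gave coordinates, overlaps and neighbours. The cytosolic ribosomal list was narrowed after the table was seen, to leave out kinases, pseudogenes and other proteins with matching symbols. Members, lists, sites and motifs were chosen with earlier results of these data known. All members may be named; from related lists, up to 4 called genes with the largest change and 2 against the majority were; all called regulators, 3 coactivators and the neighbours shown were picked after their values were seen. Python 3.11.15, pandas 2.3.3, numpy 2.4.6, scipy 1.17.1 and matplotlib 3.10.9 were used. Alternatives were a q of 0.01, a 1.5-fold threshold, no filter or 5 FPKM, a pseudocount of 0.1, rescaling by the median of ratios, shared measurements included, subunits by position and, added after seeing the data, members without overlaps.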

Additional observations from a re-analysis of the deposited data

How the results depend on the processing

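No call count reversed its lean and no median changed sign under the alternatives run. With a change of at least 1.5-fold also required, 15 members fell (12 large-subunit, 3 small-subunit) and 5 rose (4 and 1), so the excess over the background of falls rests on smaller changes. Without the 26 tested members whose exons overlap another gene, 20 of the rest fell (13 of the large subunit) and 4 rose (3 and 1). These counts are smaller because fewer genes were counted. The medians were then -0.19 in all, -0.20 in the large and -0.16 in the small subunit. Placing subunits by structure left 1 rise in the small subunit, because Mrps30 moves. The medians of all members and of the small subunit were -0.22 with a pseudocount of 0.1 and again -0.22 after rescaling by the median of ratios (1.00 for hypoxia over normoxia), and that of the small subunit was -0.22 with shared measurements included. A q of 0.01 left 25 falls and 9 rises, as counts of genes among the 72. Of all 14575 tested measurements it left 3530 lower (24.2%) and 3571 higher (24.5%). No filter and a filter of 5 FPKM gave the same counts, since every tested member is above 10 FPKM in each condition. No paired analysis was possible because the table holds no values of single samples, and for the same reason leaving out replicates in turn was not run. The unknown depth and the missing replicate spread limit what small differences can show.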
